A study of Mus musculus with 12 samples.

Results

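Integrin and laminin chain genes were described across 4 mouse cell populations: 38 genes chosen by symbol from the 33352 genes of the count table, namely 18 integrin alpha, 9 integrin beta, 5 laminin alpha, 3 laminin beta and 3 laminin gamma genes. Poly(A) RNA had been sequenced from cells sorted by flow cytometry out of the aorta and its perivascular fat, taken from male wild-type CD-1 mice of 13 weeks, an outbred strain. The populations were SMC2 and SMC1, both labelled smooth muscle cells, Intermediate and Progenitor, with 3 libraries each. All groups shared strain, sex, age and the digestion with collagenase and dispase, and the labels do not say whether a library held cells of 1 mouse or of several. Sort antibodies are not given in the sources used here, and whether an integrin served as a gate cannot be told.

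Integrins are receptors made of an alpha and a beta chain that tie the cell to the matrix around it and, through talin and kindlin, to its actin cytoskeleton. Laminins are trimers of an alpha, a beta and a gamma chain that polymerise into the basement membrane, the sheet that wraps each smooth muscle cell and underlies endothelium, fat cells and Schwann cells. In the vessel wall the contractile cell is coupled to elastic and collagenous matrix through these receptors.

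Of the 38 genes, 36 passed the filter on low counts. The leukocyte chain Itgad and the beta 2-like gene Itgb2l did not, at no more than 1.32 and 0.60 CPM in any library, where CPM is counts scaled to a common library size with TMM factors. Library totals ran from 13258631 to 22647175 counts. The SMC populations carried smooth muscle markers, as labelled, while Intermediate and Progenitor, whose labels do not name fibroblasts, carried fibroblast markers. Summed over 7 smooth muscle markers the level was 21048 to 29706 CPM in SMC2 and 31128 to 37177 CPM in SMC1, against 517 to 665 CPM in Intermediate and 228 to 555 CPM in Progenitor. Over 8 fibroblast markers it was 429.6 to 893 CPM in SMC2 and 1064 to 1872 CPM in SMC1, against 41624 to 50147 CPM in Intermediate and 50899.6 to 63647 CPM in Progenitor. In sorted pools a lower level can come from fewer expressing cells or from less RNA per cell, which cannot be told apart.

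The threshold for calling a difference was 0.05 on p-values from the quasi-likelihood test of edgeR, adjusted after Benjamini and Hochberg across the 19016 genes tested. Changes are log2 of the first-named over the second-named population with their standard error. Between SMC1 and Progenitor, 27 of the 36 integrin and laminin genes passed it, with 19 higher and 8 lower in SMC1. Of all genes tested 48.3% passed, 25.3% higher and 23.1% lower. All 27 of the chain genes differed at least 2-fold, as did 30.5% of all genes. Between SMC2 and SMC1, 17 were called, 2 higher and 15 lower in SMC2, where 34.6% of all genes were called, 16.5% higher and 18.1% lower. Between Intermediate and Progenitor, 17 were called, 10 higher and 7 lower in Intermediate, beside 22.2% of all genes, 12.7% higher and 9.46% lower. The median change of the 36 was 1.14 in SMC1 over Progenitor, -0.65 in SMC2 over SMC1 and 0.0126 in Intermediate over Progenitor, while the medians of all genes were -0.00491, -0.00276 and 0.0783 in the same order.

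In the remaining comparisons, 21 genes were called between SMC2 and Progenitor, 10 higher and 11 lower in SMC2, where 44.8% of all genes were called, 23.1% higher and 21.7% lower. A total of 22 were called between SMC1 and Intermediate, 17 higher and 5 lower in SMC1, where 41.6% of all genes were called, 19.7% higher and 21.9% lower. A total of 19 were called between SMC2 and Intermediate, 9 higher and 10 lower in SMC2, where 44.6% of all genes were called, 21.4% higher and 23.2% lower. The 6 comparisons share populations, so they are not independent of each other. By mean level, 17 of the 36 genes were highest in SMC1, 8 in Progenitor, 7 in SMC2 and 4 in Intermediate. Called in all 6 comparisons were 4 genes, Itga3, Itga8, Lama2 and Lamb1, and 8 were called in none. Highest populations and calls across the 6 comparisons were not counted over all genes. Whether these numbers are unusual for the chain genes was therefore not tested. Libraries of the compared populations did not overlap in 28 of the 36 genes for SMC1 and Progenitor (56.4% of all genes), 19 for SMC2 and SMC1 (46.3%) and 20 for Intermediate and Progenitor (38.7%). They did not overlap in 21 for SMC2 and Progenitor (52.8%), 23 for SMC1 and Intermediate (52.9%) and 20 for SMC2 and Intermediate (54.2%).

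SMC2 also carried markers of other cell types. The 7 adipocyte markers summed to 2445 to 2749 CPM in SMC2 and 151 to 306 CPM in SMC1, 51.3 to 75.5 CPM in Intermediate and 133 to 171 CPM in Progenitor, and all 7 were called higher in SMC2 than in SMC1. The 8 Schwann cell markers found summed to 140.4 to 296 CPM in SMC2 and 40.5 to 63.3 CPM in SMC1, 18.8 to 33.7 CPM in Intermediate and 16.6 to 16.8 CPM in Progenitor. Of these 8, 5 were called higher and 0 lower in SMC2 than in SMC1. The mean of Prx went the other way, at 5.41 CPM in SMC2 and 9.07 CPM in SMC1. No marker of either list was at 0 in all 3 libraries of a population. Their part in the SMC2 levels was not tested.

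**Figure D1:**
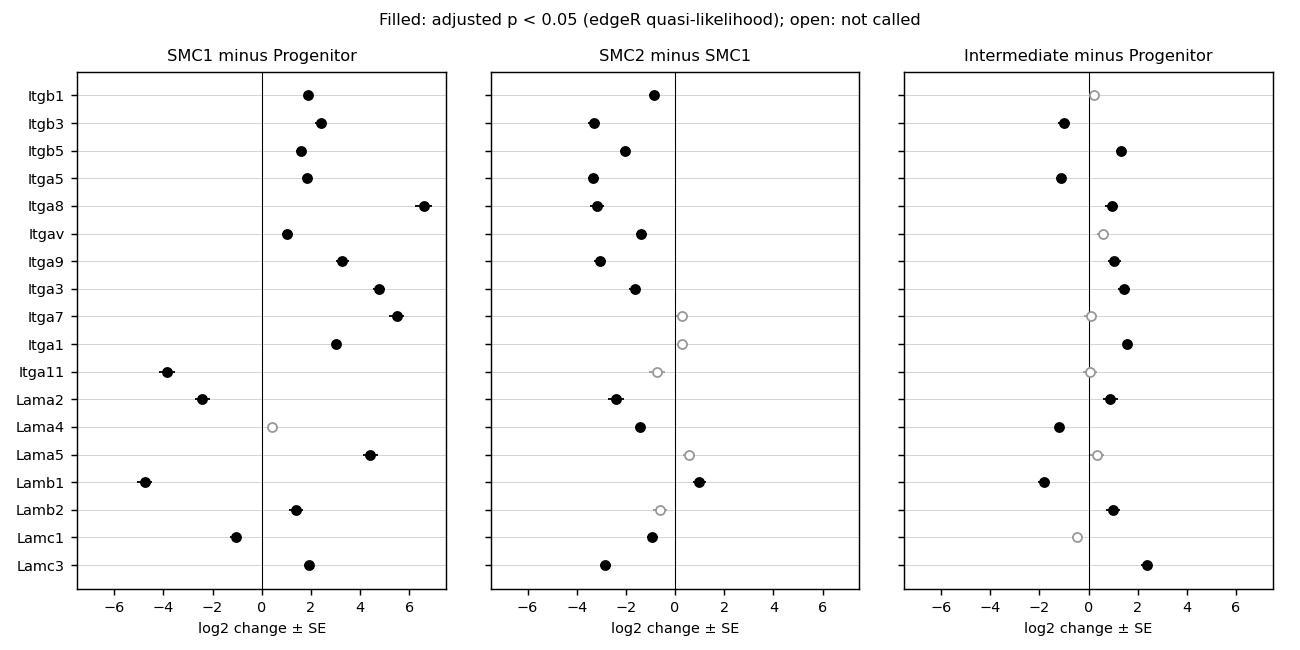
Log2 changes with standard errors (horizontal axis) of 18 integrin and laminin genes that reached at least 20 CPM in a population, in SMC1 over Progenitor, SMC2 over SMC1 and Intermediate over Progenitor. Filled points were called at an adjusted p below 0.05 and open points were not; Itga8 is the farthest right in the SMC1 over Progenitor panel (6.59) and Lamb1 the farthest left (-4.77).

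The beta 1 chain, which pairs with most alpha chains of matrix receptors, was high in every population and highest in SMC1. Itgb1 (chr8:128685654-128733200 in GRCm38) had 2014, 2060.5 and 1606 CPM in SMC2 libraries, 3347, 3531 and 3537 CPM in SMC1, 1165, 997 and 1108 CPM in Intermediate and 1009, 763 and 1012 CPM in Progenitor. Every SMC1 library lay above every SMC2 library, and these lay above all Intermediate and Progenitor libraries, which overlapped. The change was 1.90 ± 0.19 in SMC1 over Progenitor (edgeR adjusted p = 5.43e-08), 1.03 ± 0.19 in SMC2 over Progenitor (1.20e-04) and -0.87 ± 0.19 in SMC2 over SMC1 (9.54e-04), and 0.23 ± 0.19 in Intermediate over Progenitor, which was not called.

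The beta 5 chain, a partner of alpha v in vitronectin receptors, followed another order. Itgb5 (chr16:33829665-33949338) had 279, 348 and 298 CPM in SMC2 libraries, 1358, 977 and 1460.3 CPM in SMC1, 1209, 1015 and 918 CPM in Intermediate and 361, 391 and 511 CPM in Progenitor. SMC1 and Intermediate libraries overlapped, both groups lay above all Progenitor libraries, and SMC2 was lowest without overlap. Intermediate exceeded Progenitor by 1.31 ± 0.20 (edgeR adjusted p = 8.38e-05), SMC1 exceeded Progenitor by 1.59 ± 0.20 (1.75e-06), and SMC2 was below SMC1 at -2.04 ± 0.21 (1.60e-07). In SMC2 over Progenitor the change of -0.45 ± 0.20 was not called (edgeR adjusted p = 0.0760). It was called by DESeq2 (adjusted p = 0.0357) and in edgeR with upper-quartile scaling (0.0324) or without SMC2 replicate 2 (0.0448). Itgb3 (chr11:104608000-104670476), the beta 3 chain of the alpha v and platelet receptors, had 14.2, 24.3 and 18.8 CPM in SMC2 libraries, 173, 162 and 235 CPM in SMC1, 17, 19.9 and 17.4 CPM in Intermediate and 27.5, 30.5 and 50.1 CPM in Progenitor. SMC1 stood highest and Progenitor next, each without overlap, while SMC2 and Intermediate overlapped. The change was 2.40 ± 0.23 in SMC1 over Progenitor (edgeR adjusted p = 4.53e-08) and -3.32 ± 0.24 in SMC2 over SMC1 (3.28e-09). Intermediate was below Progenitor at -0.99 ± 0.23 (0.00394). Itgb8, whose product with alpha v activates latent TGF-beta, averaged 5.26 ± 0.819 CPM in SMC2, 18.5 ± 2.38 in SMC1, 10.4 ± 0.183 in Intermediate and 4.82 ± 1.81 in Progenitor (SD, n = 3 each). It rose in SMC1 over Progenitor (1.94 ± 0.24) and in Intermediate over Progenitor (1.10 ± 0.24) and fell in SMC2 against SMC1 (-1.82 ± 0.24).

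Among receptors that bind the tripeptide RGD of fibronectin, nephronectin and vitronectin, alpha 8 had the largest change of the 36 genes in any of the 6 comparisons. Itga8, the nephronectin receptor chain (chr2:12106632-12301922), had 624, 1054 and 732 CPM in SMC2 libraries, 6153, 6938 and 8709.8 CPM in SMC1, 123, 158 and 152 CPM in Intermediate and 44.2, 71.1 and 111 CPM in Progenitor. SMC1 was highest, SMC2 next, then Intermediate and Progenitor, and no population overlapped another. SMC1 exceeded Progenitor by 6.59 ± 0.35 (edgeR adjusted p = 8.17e-12) and Intermediate by 5.65 ± 0.33 (4.51e-11). SMC2 was below SMC1 at -3.18 ± 0.30 (7.03e-08) and above Progenitor at 3.41 ± 0.30 (1.06e-08). Intermediate exceeded Progenitor by 0.94 ± 0.28 (0.0198), a call that was lost without Intermediate replicate 2 (adjusted p = 0.0607), Progenitor replicate 1 (0.0897) or Progenitor replicate 2 (0.0616) and with upper-quartile scaling (0.0585). Of the Itga8 exon bases, 5.05% overlap another annotated gene. Among tested genes the share was larger for Itga4 (8.04%), Itgb4 (7.66%), Lamc3 (6.27%) and Itgav (5.90%). It was also larger for Itga10 and Itgam, given below.

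Itga5, the alpha chain of the fibronectin receptor (chr15:103344286-103366763), had 53, 78.2 and 61.6 CPM in SMC2 libraries, 677, 553 and 702 CPM in SMC1, 95.6, 76 and 75.4 CPM in Intermediate and 140.1, 164 and 233 CPM in Progenitor. The order ran from SMC1 through Progenitor to Intermediate and SMC2, and only the libraries of these last populations overlapped. SMC1 exceeded Progenitor by 1.85 ± 0.21 (edgeR adjusted p = 2.65e-07), SMC2 was below SMC1 at -3.32 ± 0.22 (5.04e-10) and below Progenitor at -1.48 ± 0.21 (4.81e-06), and Intermediate was below Progenitor at -1.12 ± 0.20 (4.50e-04). The alpha v chain, shared by receptors with beta 1, 3, 5, 6 and 8, varied less. Itgav (chr2:83724397-83806916) had 82.2, 74.4 and 66.9 CPM in SMC2 libraries, 159.7, 176 and 242 CPM in SMC1, 138, 121 and 161 CPM in Intermediate and 73.9, 67.4 and 138 CPM in Progenitor. SMC1 and Intermediate overlapped, as did Intermediate and Progenitor, and SMC2 and Progenitor. SMC1 was above Progenitor at 1.05 ± 0.23 (edgeR adjusted p = 9.12e-04) and SMC2 below SMC1 at -1.37 ± 0.23 (1.13e-04). Between Intermediate and Progenitor the change of 0.59 ± 0.23 was not called (edgeR adjusted p = 0.073), but with the replicate number as a block it was 0.63 with adjusted p = 0.0294, and without Progenitor replicate 3 it was 1.0 (0.0015).

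Alpha 9, a receptor chain for tenascin C, VCAM-1 and other ligands without RGD, was highest in SMC1 and next highest in Intermediate. Itga9 (chr9:118606690-118901003) had 80.9, 185 and 136 CPM in SMC2 libraries, 1082, 931 and 1330.1 CPM in SMC1, 238, 241 and 237 CPM in Intermediate and 92.5, 104 and 148 CPM in Progenitor. SMC1 libraries and Intermediate libraries stood apart from each other and from the rest, while SMC2 and Progenitor overlapped. The change was 3.28 ± 0.27 in SMC1 over Progenitor (edgeR adjusted p = 3.39e-09), -3.05 ± 0.26 in SMC2 over SMC1 (2.68e-08) and 1.06 ± 0.25 in Intermediate over Progenitor (0.0042). Its relative Itga4, which also binds VCAM-1 and fibronectin and is abundant on leukocytes, stayed at group means of 9.84 CPM in SMC2, 8.73 in SMC1, 5.53 in Intermediate and 2.72 in Progenitor. It rose over Progenitor in SMC2 (1.85 ± 0.24), SMC1 (1.67 ± 0.24) and Intermediate (1.02 ± 0.24).

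**Figure D2:**
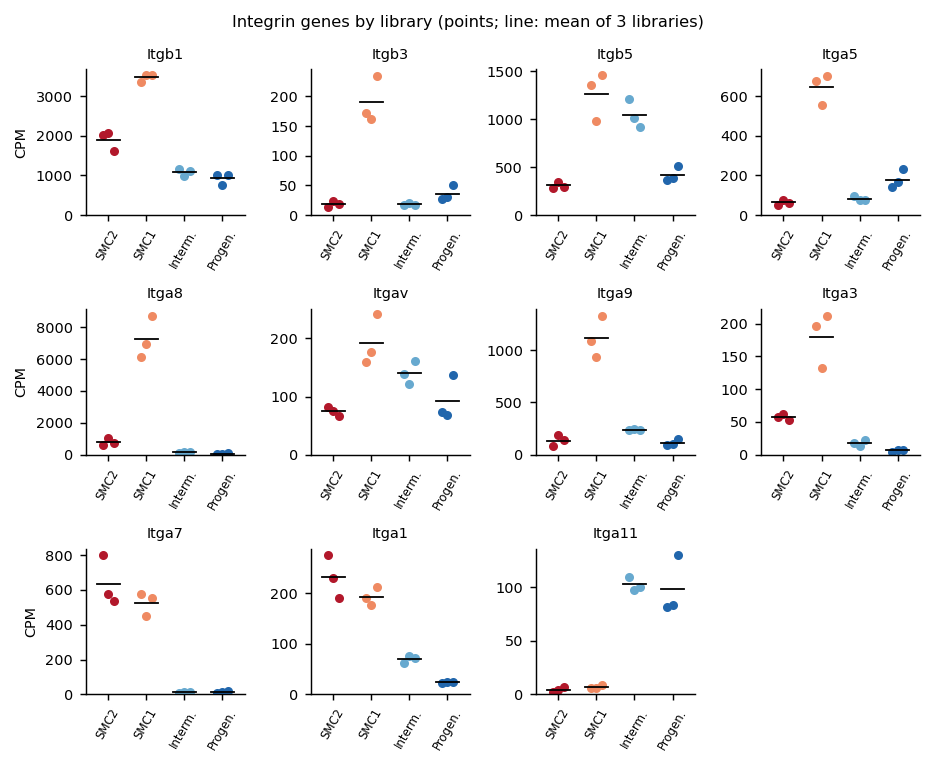
CPM of 11 integrin genes in each library (points, 3 per population) with the mean of the population (line), each panel on its own linear axis from 0. SMC1 stands highest for Itgb3, Itga5, Itga8 and Itga9, both SMC populations stand above the others for Itga7 and Itga1, and the reverse holds for Itga11.

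Of the laminin receptors, alpha 7 was shared by both smooth muscle populations and alpha 3 was higher in SMC1. Itga7, the laminin receptor chain typical of muscle (chr10:128933818-128958282), had 798, 577 and 535 CPM in SMC2 libraries, 576, 448 and 552 CPM in SMC1, 7.89, 16 and 13.4 CPM in Intermediate and 7.7, 10.9 and 16.7 CPM in Progenitor. Libraries of SMC2 and SMC1 overlapped, as did those of Intermediate and Progenitor, with a wide gap between the pairs of populations. SMC2 and SMC1 exceeded Progenitor by 5.76 ± 0.32 (edgeR adjusted p = 1.91e-11) and 5.49 ± 0.31 (3.41e-11), while SMC2 over SMC1 was 0.28 ± 0.26 and Intermediate over Progenitor 0.08 ± 0.28, neither called. Itga3, the laminin receptor chain best known from epithelium (chr11:95044474-95076801), had 58.1, 62.1 and 52.8 CPM in SMC2 libraries, 196, 132 and 212 CPM in SMC1, 17.4, 13.5 and 22.6 CPM in Intermediate and 4.56, 7.53 and 7.9 CPM in Progenitor. All 4 populations stood apart without overlap. SMC1 exceeded Progenitor by 4.77 ± 0.26 (edgeR adjusted p = 9.02e-12), Intermediate exceeded Progenitor by 1.43 ± 0.24 (1.86e-04), and SMC2 was below SMC1 at -1.64 ± 0.22 (5.84e-06). In Intermediate, 9 of 10 mesothelial markers were also called higher than in Progenitor, and 1, Wt1, was called lower (5.70 against 17.9 CPM). The 10 summed to 183 to 443 CPM in Intermediate, against 44.6 to 73.1 CPM in Progenitor, with 0 of 10 at 0 in either. Their part in the Itga3 difference was not tested.

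The third chain of that group, Itga6, was low throughout, with 7.04, 8.74 and 15.2 CPM in SMC2 libraries, 21.8, 9.14 and 11.7 CPM in SMC1, 3.73, 6.97 and 5.88 CPM in Intermediate and 4.6, 6.0 and 7.58 CPM in Progenitor. SMC1 libraries lay above all Progenitor and Intermediate libraries and overlapped SMC2. Its change in SMC1 over Progenitor was 1.24 ± 0.34 (edgeR adjusted p = 0.0060), but 0.72 with adjusted p = 0.0681 without SMC1 replicate 1. That library had a higher sum of the 12 endothelial markers (568 CPM) than the other SMC1 libraries (395 and 441 CPM), with 0 of 12 at 0. Erg went the other way, at 14.8 CPM against 18.5 and 19.7 CPM. The same library had a higher sum of the 13 leukocyte markers as well (681 CPM, against 157 and 165 CPM). Lyz2 made up 482 CPM of that sum. Endothelial cells express Itga6, and the part of endothelial cells or leukocytes was not tested. Its partner in hemidesmosomes, Itgb4, had group means of 7.79 CPM in SMC2, 9.03 in SMC1, 8.19 in Intermediate and 8.46 in Progenitor and was called in no comparison.

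Receptors for collagen were divided between the populations. Itga1, which binds the collagen IV of basement membranes (chr13:114953096-115101964), had 275, 230.5 and 189.7 CPM in SMC2 libraries, 189.8, 176 and 213 CPM in SMC1, 62.8, 75.9 and 71.1 CPM in Intermediate and 21.6, 25.1 and 23.7 CPM in Progenitor. The smooth muscle libraries overlapped each other, Intermediate stood between, and Progenitor was lowest with no overlap. The change was 3.31 ± 0.18 in SMC2 over Progenitor (edgeR adjusted p = 5.87e-12), 3.04 ± 0.18 in SMC1 over Progenitor (1.87e-11) and 1.58 ± 0.17 in Intermediate over Progenitor (1.47e-06), and 0.27 ± 0.16 in SMC2 over SMC1, not called. Itga11, the fibroblast receptor for fibrillar collagen (chr9:62677826-62783982), went the other way, with 1.75, 4.4 and 6.54 CPM in SMC2 libraries, 6.36, 5.88 and 8.38 CPM in SMC1, 109.8, 97.5 and 100.3 CPM in Intermediate and 81.7, 83.2 and 129.6 CPM in Progenitor. SMC2 and SMC1 libraries overlapped, Intermediate and Progenitor libraries overlapped, and the second pair of populations was higher. The change was -4.56 ± 0.34 in SMC2 over Progenitor (edgeR adjusted p = 7.28e-09) and -3.84 ± 0.32 in SMC1 over Progenitor (3.67e-08), while Intermediate over Progenitor was 0.06 ± 0.28, not called. Itga2, the alpha chain of a collagen receptor of platelets and epithelium, was likewise lower in SMC2 (2.46 CPM) and SMC1 (1.59) than in Intermediate (16.3) and Progenitor (11.3), with changes of -2.20 ± 0.26 and -2.83 ± 0.28 for SMC2 and SMC1 over Progenitor. The cartilage collagen receptor gene Itga10 stayed at or below 3.81 CPM in every library, and 33.5% of its exon bases overlap another gene, so its level is uncertain; it was called higher in SMC1 than in Progenitor (2.30 ± 0.43).

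Integrin genes of blood cells were low and followed 1 library in part. Itgb2, the beta chain shared by leukocyte integrins, had 4.79, 5.68 and 8.04 CPM in SMC2 libraries, 22.3, 6.39 and 7.09 CPM in SMC1, 5.22, 4.27 and 3.9 CPM in Intermediate and 4.01, 6.47 and 3.79 CPM in Progenitor. SMC1 replicate 1 stood at 22.3 CPM, above all other libraries, and also had the highest summed level of 13 leukocyte markers, 681 CPM against 157 and 165 CPM in the other SMC1 libraries, 165 to 299 CPM in SMC2, 124 to 150.4 CPM in Intermediate and 166 to 213 CPM in Progenitor. Lyz2 made up 482 CPM of the sum in SMC1 replicate 1. Cd3e was not raised there, at 1.17 CPM against 1.31 and 1.11 CPM in the other SMC1 libraries. No leukocyte marker was at 0 in all 3 libraries of any population. The call of Itgb2 in SMC1 over Progenitor (1.33 ± 0.40, edgeR adjusted p = 0.0108) fell away without that library, where the change was 0.43 (adjusted p = 0.265). Without Progenitor replicate 1 or 3 its adjusted p was 0.0569 or 0.0516. Itgam, the alpha chain of the macrophage receptor Mac-1, had 0.322, 0.741 and 0.60 CPM in SMC2 libraries, 3.61, 1.03 and 1.23 CPM in SMC1, 0.249, 0.377 and 0.447 CPM in Intermediate and 0.501, 0.20 and 0.505 CPM in Progenitor, and its change of 2.24 in SMC1 over Progenitor became 1.38 without SMC1 replicate 1 (adjusted p = 0.0991). Without that library the calls of Itgb2 in SMC1 over Intermediate (adjusted p = 0.132) and of Itgam in SMC1 over Intermediate (0.0615) and in SMC2 over SMC1 (0.256) were lost as well. Another annotated gene overlaps 68.7% of Itgam's exon bases.

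The lymphocyte chain genes Itgal and Itgb7 and the dendritic cell gene Itgax were called in no comparison and had group means of at most 5.79, 5.01 and 0.67 CPM. Without SMC1 replicate 1, Itgal was lower in SMC1 than in Progenitor (-1.01, adjusted p = 0.0289), and without Progenitor replicate 3 it was lower in SMC2 than in Progenitor (-1.0, 0.0295). Itgae, the alpha E chain of intraepithelial lymphocytes, had 4.19, 3.11 and 3.42 CPM in SMC2 libraries, 0.356, 0.793 and 0.937 CPM in SMC1, 0.621, 0.377 and 0.83 CPM in Intermediate and 1.23, 1.27 and 1.96 CPM in Progenitor. All SMC2 libraries lay above all others, and SMC2 exceeded SMC1 by 2.36 ± 0.41 (edgeR adjusted p = 1.24e-04). Its calls in SMC2, SMC1 and Intermediate over Progenitor were each lost without 1 or another library, with adjusted p = 0.051 to 0.195. The platelet chain gene Itga2b averaged 5.11 ± 0.72 CPM in SMC2, 3.96 ± 1.37 in SMC1, 5.02 ± 1.28 in Intermediate and 8.95 ± 0.672 in Progenitor, its highest level (SD, n = 3 each), while the 5 platelet markers found summed to 11.8 to 12 CPM in SMC2, 4.98 to 16.1 in SMC1, 6.21 to 7.28 in Intermediate and 6.06 to 12.3 in Progenitor. The epithelial gene Itgb6 did not exceed 1.98 CPM in any library.

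**Figure D3:**
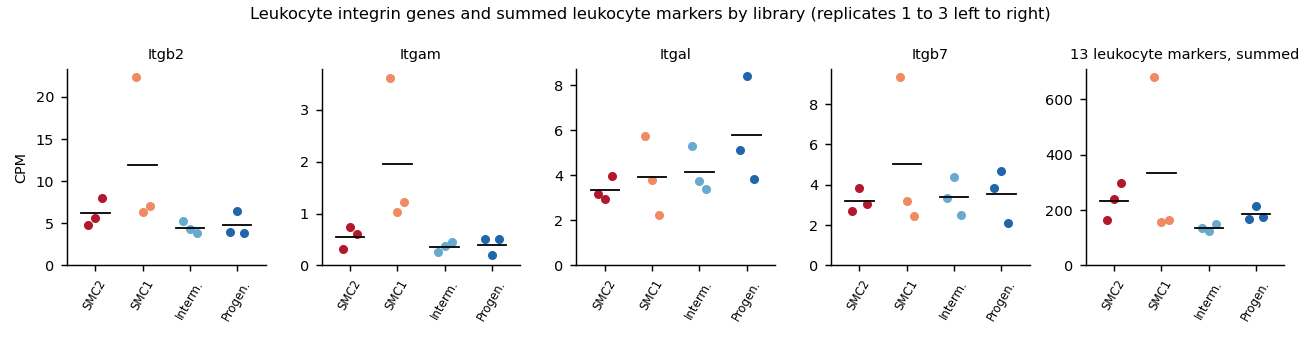
CPM of 4 leukocyte integrin genes and the summed CPM of 13 leukocyte markers in each library (points, replicates 1 to 3 from left to right, line at the mean). SMC1 replicate 1 is the highest point for Itgb2, Itgam, Itgb7 and the marker sum, and not for Itgal.

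The laminin alpha chains exchanged places between populations. Lama2, the alpha chain of the laminin of muscle and nerve basement membrane (chr10:26980036-27619758), had 5.15, 12.8 and 16.3 CPM in SMC2 libraries, 49.4, 63 and 66.5 CPM in SMC1, 487, 607 and 667 CPM in Intermediate and 268, 257 and 429.7 CPM in Progenitor. The order was Intermediate, Progenitor, SMC1 and SMC2, with no overlap between any of the 4 populations. SMC1 was below Progenitor at -2.42 ± 0.31 (edgeR adjusted p = 5.95e-06), SMC2 below SMC1 at -2.39 ± 0.32 (1.59e-05) and below Intermediate at -5.69 ± 0.37 (8.27e-10). The higher level in Intermediate than in Progenitor, 0.88 ± 0.30 (0.0422), was not called with median-of-ratios or upper-quartile scaling (adjusted p = 0.063 and 0.108), nor without Intermediate replicate 2 or 3 (0.098 and 0.109) or Progenitor replicate 1 or 2 (0.143 and 0.14).

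Lama5, the alpha chain of endothelial and epithelial laminins (chr2:180176373-180225859), ran opposite to Lama2, with 181, 141 and 134 CPM in SMC2 libraries, 104, 97.2 and 106 CPM in SMC1, 4.78, 7.28 and 6.13 CPM in Intermediate and 2.19, 7.53 and 4.99 CPM in Progenitor. SMC2 exceeded Progenitor by 4.98 ± 0.31 (edgeR adjusted p = 2.99e-10) and SMC1 exceeded it by 4.42 ± 0.31 (1.21e-09). All SMC2 libraries lay above all SMC1 libraries, yet the change of 0.57 ± 0.25 was not called (edgeR adjusted p = 0.0939). It was called with upper-quartile scaling (adjusted p = 0.0479) and in the fit of only these populations (0.00325). The endothelial marker Cdh5 averaged 2.18 CPM in SMC2 and 8.02 CPM in SMC1, against 1.89 CPM in Intermediate and 2.92 CPM in Progenitor, and the 12 endothelial markers summed to 471 to 556, 395 to 568, 112 to 175 and 191 to 266 CPM in the same order. Most of the SMC2 sum was Esam, at 494, 361 and 315 CPM in SMC2 and 104, 51.7 and 81.4 CPM in SMC1, and of the 12 markers 1 was called higher and 6 lower in SMC2 than in SMC1. The part of endothelial cells in the Lama5 level was not tested.

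Lama4, the alpha chain of vascular and adipose basement membrane (chr10:38965515-39110188), had 149, 140.1 and 126 CPM in SMC2 libraries, 325, 373 and 425 CPM in SMC1, 117, 118 and 129 CPM in Intermediate and 262, 219 and 349.6 CPM in Progenitor. SMC1 and Progenitor were the higher populations and overlapped in part, and the change between them of 0.44 ± 0.18 was not called (edgeR adjusted p = 0.0517); without Progenitor replicate 3 it was 0.65 (adjusted p = 0.0083). SMC2 and Intermediate overlapped below them. SMC2 was below SMC1 at -1.44 ± 0.18 (2.93e-06) and Intermediate below Progenitor at -1.19 ± 0.18 (7.64e-05). The embryonic chain gene Lama1 and the epithelial chain gene Lama3 did not exceed 4.86 and 5.28 CPM in any library and were called in no comparison.

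Promoter windows, 250 bases before to 50 after a RefSeq start in GRCm38.p6, were found for 24 of the 38 genes, as 27 windows. Those of Itga8, Lama5 and Lama2 are shown because these genes were among the most divergent, the first pair high in smooth muscle populations and Lama2 low there; all 3 lie on the minus strand and are read 5′ to 3′ along the gene. The RefSeq start used for Lama2 lies inside the longer GENCODE gene. Capitals mark matches on either strand to the CArG box (the site of serum response factor), to GGAATG (the core of the TEAD site) and to GGGCGG (the GC box).
Itga8 (chr2:12301895-12302194): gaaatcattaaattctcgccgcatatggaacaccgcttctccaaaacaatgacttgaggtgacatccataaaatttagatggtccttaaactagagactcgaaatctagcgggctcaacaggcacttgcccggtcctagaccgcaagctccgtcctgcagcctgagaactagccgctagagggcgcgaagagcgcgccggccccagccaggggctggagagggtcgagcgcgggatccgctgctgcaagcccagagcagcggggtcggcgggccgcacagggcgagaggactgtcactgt
Lama5 (chr2:180225810-180226109): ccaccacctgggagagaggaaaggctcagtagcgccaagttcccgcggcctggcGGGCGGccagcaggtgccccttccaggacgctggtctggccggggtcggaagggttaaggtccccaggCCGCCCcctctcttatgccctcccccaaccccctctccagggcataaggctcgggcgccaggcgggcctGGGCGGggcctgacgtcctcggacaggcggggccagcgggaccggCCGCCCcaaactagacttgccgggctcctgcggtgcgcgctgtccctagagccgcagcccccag
Lama2 (chr10:27616893-27617192): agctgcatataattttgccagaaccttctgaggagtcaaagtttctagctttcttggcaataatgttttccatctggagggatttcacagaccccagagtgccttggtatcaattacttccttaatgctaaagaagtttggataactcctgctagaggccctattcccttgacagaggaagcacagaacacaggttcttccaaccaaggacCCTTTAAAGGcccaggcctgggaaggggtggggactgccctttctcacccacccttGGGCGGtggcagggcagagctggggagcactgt
The Itga8 window held none of these motifs, the Lama5 window held 4 GC boxes, and the Lama2 window held 1 CArG box and 1 GC box. Among all 32851 windows of the same length, 1.63% held a CArG box, 14.7% GGAATG and 35.7% GGGCGG; among the 27 windows of integrin and laminin genes 2, 3 and 12 did.

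Of the laminin beta chains, Lamb1 separated the 4 populations and Lamb2 did not. Lamb1 (chr12:31265234-31329644), the beta 1 chain of most early and interstitial laminins, had 21.8, 25.7 and 27.7 CPM in SMC2 libraries, 18.6, 8.11 and 11.4 CPM in SMC1, 104, 94.2 and 96.1 CPM in Intermediate and 324, 241 and 470.2 CPM in Progenitor. Progenitor stood highest and Intermediate next, with no overlap between any of the 4 populations. Intermediate was below Progenitor at -1.82 ± 0.25 (edgeR adjusted p = 4.18e-05), SMC1 below Progenitor at -4.77 ± 0.29 (1.04e-10), and SMC2 above SMC1 at 0.98 ± 0.26 (0.00636). Lamb1 and Itgae were the 2 genes called higher in SMC2 than in SMC1. Lamb2 (chr9:108479736-108490530), the beta 2 chain of mature muscle and vessel laminins, had 1212, 831 and 756 CPM in SMC2 libraries, 1525, 1036 and 1724 CPM in SMC1, 1140, 1053 and 1042 CPM in Intermediate and 324, 478 and 815 CPM in Progenitor. SMC2 overlapped each of the other populations, and SMC1 overlapped Intermediate. SMC1 exceeded Progenitor by 1.41 ± 0.28 (edgeR adjusted p = 3.78e-04). Intermediate exceeded it by 1.0 ± 0.28 (0.0141), which was not called without Progenitor replicate 1 (adjusted p = 0.0662) or 2 (0.058). SMC2 exceeded Progenitor by 0.79 ± 0.28 (edgeR adjusted p = 0.0256), but by 0.48 without SMC2 replicate 1 (0.192) and 0.53 without Progenitor replicate 1 (0.129). The change in SMC2 over SMC1, -0.61 ± 0.28, was not called (edgeR adjusted p = 0.0935), but was -0.82 without SMC1 replicate 2 (adjusted p = 0.0334) and -0.87 without SMC2 replicate 1 (0.0232). Lamb3, of epithelial laminin, stayed at or below 3.54 CPM.

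The gamma chains Lamc1 and Lamc3 had different orders. Lamc1 (chr1:153218922-153332786), the gamma chain of most laminins, had 163, 136 and 129.8 CPM in SMC2 libraries, 261, 226 and 330.4 CPM in SMC1, 422, 408 and 418 CPM in Intermediate and 449, 451 and 804 CPM in Progenitor. Progenitor was highest, then Intermediate, SMC1 and SMC2, with no overlap. SMC1 was below Progenitor at -1.06 ± 0.22 (edgeR adjusted p = 3.97e-04) and SMC2 below SMC1 at -0.93 ± 0.22 (0.0020), and Intermediate over Progenitor was -0.45 ± 0.21, not called. With upper-quartile scaling that change was called, at -0.60 (adjusted p = 0.0396).

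Lamc3 (chr2:31887291-31946539), the gamma 3 chain, had 12.4, 11.5 and 11.5 CPM in SMC2 libraries, 93.3, 64.4 and 96.5 CPM in SMC1, 118, 110.5 and 115 CPM in Intermediate and 19.5, 16 and 31.2 CPM in Progenitor. Intermediate was highest, then SMC1, Progenitor and SMC2, with no overlap. Intermediate exceeded Progenitor by 2.36 ± 0.21 (edgeR adjusted p = 1.77e-07), SMC1 exceeded Progenitor by 1.93 ± 0.21 (1.69e-07), and SMC2 was below SMC1 at -2.84 ± 0.22 (4.11e-09).

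**Figure D4:**
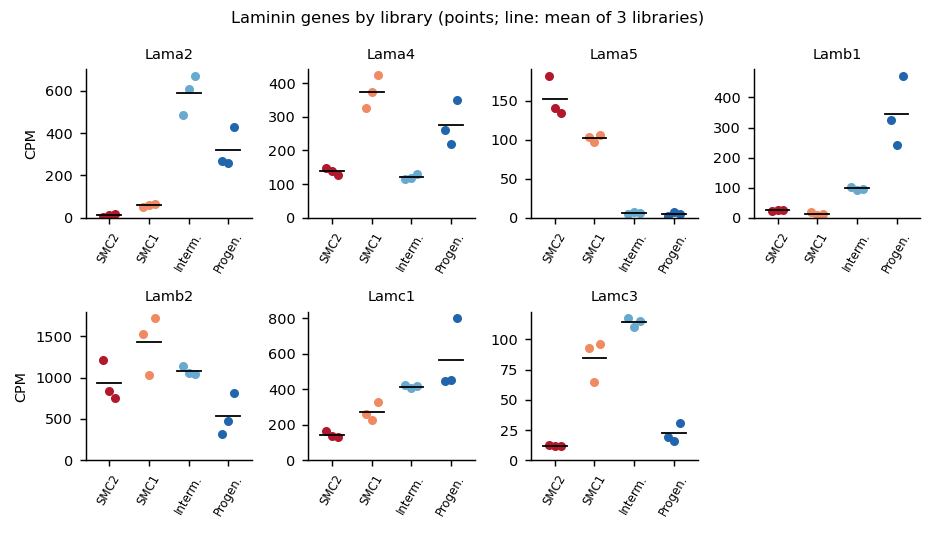
CPM of 7 laminin genes in each library (points, 3 per population) with the mean of the population (line), each panel on its own linear axis from 0. Lama2 is high in Intermediate and Progenitor, Lama5 in SMC2 and SMC1, Lamb1 in Progenitor, and Lamc3 in SMC1 and Intermediate.

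To compare chains with each other, levels were divided by the length of the gene's exons, giving CPM per kilobase, and each chain's share of its family was taken within a library (mean ± SD, n = 3; no test was made). Of the laminin alpha level in SMC2, Lama5 held 51 ± 3.77% and Lama4 44.1 ± 1.84%. In SMC1 Lama4 held 70.3 ± 1.76% and Lama5 20.6 ± 2.21%. In Intermediate Lama2 held 76.5 ± 1.96%, and in Progenitor Lama4 and Lama2 held 53.3 ± 2.52% and 44.8 ± 2.2%. The order in SMC2 depended on the length used: with the longest annotated transcript in place of the union of exons, Lama4 held 60.3% and Lama5 35% there. In SMC1 that length gave Lama4 79.8% and Lama5 11.7%.

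Lamb2 made up 98.1 ± 0.749% of the laminin beta level in SMC2, 99.4 ± 0.151% in SMC1, 94.6 ± 0.102% in Intermediate and 70.6 ± 7.7% in Progenitor, most of the rest being Lamb1.

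Of the integrin alpha level, Itga8 held 42.6 ± 7.25% in SMC2, where Itga7 held 31.4 ± 8.32%, and 70.7 ± 3.47% in SMC1. Again the order in SMC2 turned with the longest transcript, to 41.6% for Itga7 and 36% for Itga8. Itga9 was the largest share in Intermediate (27.2 ± 0.69%) and Itga5 in Progenitor (36.8 ± 0.428%). Itgb1 and Itgb5 shared the beta level, with Itgb1 at 82.9 ± 2.25% in SMC2, 68.3 ± 4.65% in SMC1, 47 ± 3.08% in Intermediate and 63.7 ± 4.69% in Progenitor. Summed integrin alpha level was 254 ± 32.3 CPM per kilobase in SMC2, 1393 ± 217 in SMC1, 114 ± 1.95 in Intermediate and 98.9 ± 27.7 in Progenitor, and summed beta level was 559 ± 64.9, 1248 ± 74.9, 569.8 ± 55.1 and 357 ± 48.4 in the same order. By mean, the alpha sum exceeded the beta sum in SMC1 and was below it in the other populations. In SMC1 the ranges overlapped, at 1251 to 1643 CPM per kilobase for alpha and 1174 to 1324 for beta. The sums were not repeated with the longest transcript. Summed laminin levels in SMC2, SMC1, Intermediate and Progenitor were 26 ± 2.42, 44 ± 4.83, 46.9 ± 6.28 and 43.2 ± 11.4 CPM per kilobase for alpha chains.

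**Figure D5:**
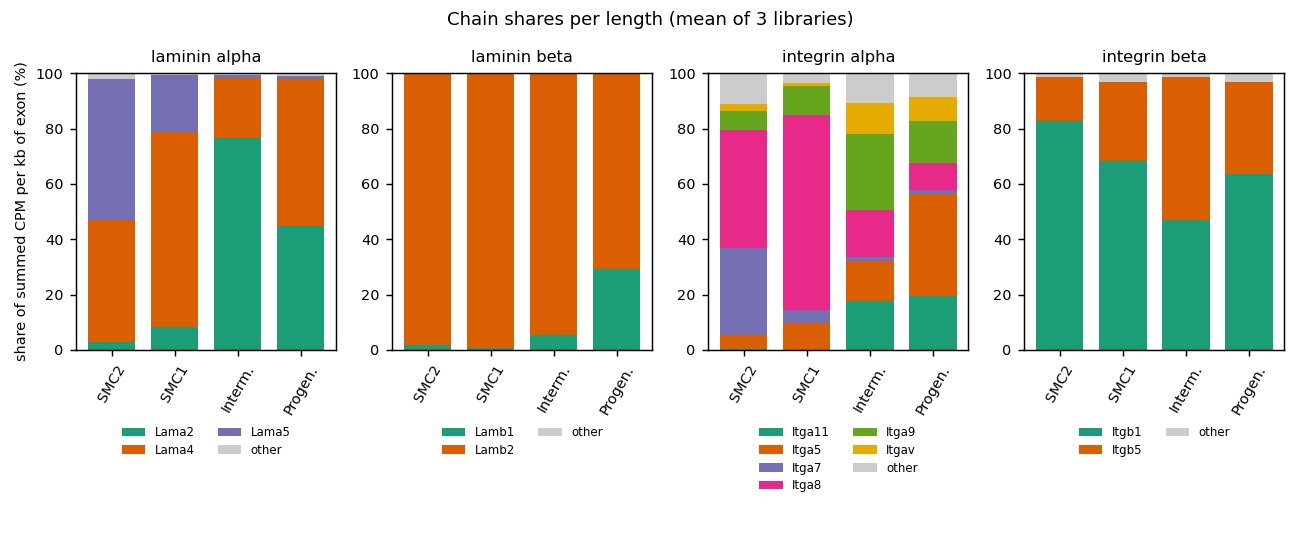
Share of each chain in the summed CPM per kilobase of exon of its family (vertical axis, percent, mean of 3 libraries) in the 4 populations; chains never reaching 5% in any population are pooled as other. Lama2 fills most of the laminin alpha bar in Intermediate (76.5 ± 1.96%), and Itga8 fills most of the integrin alpha bar in SMC1 (70.7 ± 3.47%).

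Genes that work beside laminins and integrins were counted from 4 lists, with log2 changes and standard errors for those named. Of all genes tested, 25.3% were higher and 23.1% lower in SMC1 than in Progenitor, 16.5% and 18.1% in SMC2 than in SMC1, and 12.7% and 9.46% in Intermediate than in Progenitor. Of 20 basement membrane partners, 7 were higher and 9 lower in SMC1 than in Progenitor (median change -0.29), 3 higher and 14 lower in SMC2 than in SMC1 (median -1.30), and 7 higher and 3 lower in Intermediate than in Progenitor (median 0.32). The linker Nid1, which binds the laminin gamma 1 chain to collagen IV, fell in SMC1 against Progenitor (-4.47 ± 0.25), as did Smoc2 (-5.59 ± 0.32), while the collagen genes Col18a1 (4.40 ± 0.26) and Col4a6 (3.34 ± 0.24) rose. Col4a3 (3.07 ± 0.20) and Col4a4 (2.25 ± 0.24), chains of a specialised collagen IV network, were higher in Intermediate than in Progenitor, together with Col4a6 (3.22 ± 0.24) and Smoc1 (3.67 ± 0.33). In SMC2 against SMC1, the laminin-binding netrin gene Ntn4 rose (2.45 ± 0.21) and Col15a1 fell (-3.50 ± 0.30).

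Of 23 laminin receptors other than integrins, 17 were higher and 3 lower in SMC1 than in Progenitor (median 1.21), led by genes of the dystrophin complex: the dystrobrevin gene Dtna (5.55 ± 0.24), the sarcoglycan gene Sgca (5.44 ± 0.29) and the syntrophin gene Sntb1 (5.62 ± 0.27). Between SMC2 and SMC1, 1 was higher and 13 were lower in SMC2 (median -0.48), among them Sgcd (-2.76 ± 0.23). Between Intermediate and Progenitor, 10 were higher and 0 lower in Intermediate (median 0.50). Bcam, a receptor for the laminin alpha 5 chain, rose by 5.71 ± 0.32 in SMC2 over Progenitor and by 5.52 ± 0.32 in SMC1 over Progenitor.

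Of 36 tested cytoplasmic adaptors of integrins, 24 were higher and 6 lower in SMC1 than in Progenitor (median 1.30), including the talin-binding Kank1 (4.54 ± 0.23), filamin A (Flna, 4.55 ± 0.30) and vinculin (Vcl, 3.38 ± 0.22). In SMC2 against SMC1, 3 were higher and 19 lower (median -0.64), with Nedd9 among the lower (-2.38 ± 0.22). In Intermediate against Progenitor, 12 were higher and 2 lower (median 0.36), with Bcar1 (1.56 ± 0.16) and Nedd9 (1.53 ± 0.22) among the higher.

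Of 30 tested integrin ligands other than laminins, 9 were higher and 12 lower in SMC1 than in Progenitor (median -0.0147), 4 higher and 18 lower in SMC2 than in SMC1 (median -1.29), and 11 higher and 6 lower in Intermediate than in Progenitor (median 0.27). Nephronectin (Npnt), the ligand of the alpha 8 receptor, rose by 6.83 ± 0.47 in SMC1 over Progenitor. Fibronectin (Fn1), the ligand of the alpha 5 receptor, was lower in SMC2 than in SMC1 (-3.51 ± 0.33), and vitronectin (Vtn) was higher (3.69 ± 0.29). In Intermediate against Progenitor, Vtn (-5.10 ± 0.33) and periostin (Postn, -3.05 ± 0.22) fell and Ccn2 rose (3.17 ± 0.33).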

How the data were processed

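Raw read counts per gene of 12 libraries were deposited by the authors; STAR 2.5.2a, DESeq2 1.26.0 and mm10 are named, per the submitters' processing notes, and the counting program and annotation are not given in the sources used here. Libraries were made with a SMART-Seq kit, per the labels' protocols; such a kit does not mark strand, so overlapping and antisense genes cannot be told apart. Counts were filtered with filterByExpr, scaled by TMM and tested with edgeR 4.0.16 (quasi-likelihood, Benjamini-Hochberg over 19016 genes, R 4.3.3) in 1 fit of all 12 libraries. Standard errors are the log2 change divided by the square root of F. Exon lengths, coordinates and overlaps came from GENCODE M21 (GRCm38, which is mm10), and promoter windows from RefSeq. Genes given by library were those called with a change of at least 2-fold in SMC1 over Progenitor, SMC2 over SMC1 or Intermediate over Progenitor and at least 20 CPM in the highest population; Itga6, Itgb2, Itgam and Itgae, below that level, were added after their values were seen; from neighbour lists, up to 4 genes with the smallest adjusted p per comparison. Single values of some genes this rule names are not reported here, though counts over all genes include them. Members and lists were chosen with earlier results of these data known. Nothing in the labels says that replicates are separate animals, so p-values measure the spread between libraries, which may be technical. Same-numbered Intermediate and Progenitor libraries deviated together (correlations 0.231, 0.279 and 0.183). The main fit nevertheless had no pairing, and the replicate number entered only as a block among the alternatives. Alternatives were DESeq2 1.42.0, median-of-ratios and upper-quartile scaling, no filter, only the groups compared, the replicate block and leaving out each library. The code was tested on simulated data for SMC1 over Progenitor, with 200 of 18304 genes changed. In the real comparison 48.3% of genes were called, so recovery there can differ. In the simulation 49% of 2-fold and 95% of 4-fold changes were recovered. A change not called is therefore not shown to be absent.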

Additional observations from a re-analysis of the deposited data

How the results depend on the processing

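Limits and settings were these. The number of called integrin and laminin genes stayed within 1.5 times of the reported count in all 6 comparisons under every alternative run: other scalings, no filter on low counts, the DESeq2 test, only the groups compared, the replicate number as a block, and leaving out each library. Leaving out 1 library gave 24 to 29 for SMC1 over Progenitor, 16 to 21 for SMC2 over SMC1, 12 to 17 for Intermediate over Progenitor, 18 to 22 for SMC2 over Progenitor, 18 to 22 for SMC1 over Intermediate and 18 to 20 for SMC2 over Intermediate. Calls over all genes moved too. For Intermediate over Progenitor they were 4218 of 19016 in the main fit and 2879 of 20230 without Progenitor replicate 1, where 12 chain genes were called. For SMC1 over Progenitor they were 9194 of 19016, and 8153 of 20326 without SMC1 replicate 1, where 24 chain genes were called. With the replicate number as a block the counts were 30 for SMC1 over Progenitor, 19 for SMC2 over SMC1, 18 for Intermediate over Progenitor, 21 for SMC2 over Progenitor, 23 for SMC1 over Intermediate and 19 for SMC2 over Intermediate. Over all 19016 genes, calls in SMC1 over Progenitor rose from 9194 to 9664 with the block. The block lost the call of Itga6 in SMC2 over Intermediate (edgeR adjusted p = 0.0551) and no other. It gained those of Itgav in Intermediate over Progenitor, Itga10 and Itga11 in SMC2 over SMC1, and Itgb6, Lama4 and Lamb3 in SMC1 over Progenitor. Also gained were Lama1 in SMC2 over Intermediate and Lamc3 in SMC1 over Intermediate. Outside Intermediate and Progenitor, correlations of same-numbered libraries ran from -0.0477 (SMC2 and Progenitor, replicate 2) to 0.371 (SMC1 and Progenitor, replicate 3). For SMC1 and Intermediate they were 0.210, 0.112 and 0.0264. What same-numbered libraries share is not given in the labels. Upper-quartile scaling shifted the median of all genes by -0.18 in SMC1 over Progenitor, -0.16 in Intermediate over Progenitor and 0.11 in SMC2 over SMC1 and turned the share of higher calls among all called genes to 41.3%, 39.2% and 56.7%, against 52.3%, 57.3% and 47.7% with TMM. Among the 18 genes of the plot of log2 changes, signs turned in 6 changes, none of them called; uncalled changes of the other genes were not followed for sign. Itga11 in Intermediate over Progenitor was 0.06 and ranged over -0.0366 to 0.32 when 1 library was left out, and was -0.0886 with upper-quartile scaling and -0.0322 with only the 2 groups compared. Itga7 in Intermediate over Progenitor was 0.08 and ranged over -0.14 to 0.44 when 1 library was left out, and was -0.0596 with upper-quartile scaling and -0.0111 with only the 2 groups compared. Lama5 in Intermediate over Progenitor was 0.34 and ranged over -0.0283 to 0.80 when 1 library was left out. Itga9 in SMC2 over Progenitor was 0.22 and ranged over -0.16 to 0.45 when 1 library was left out. Itgb3 in SMC2 over Intermediate was 0.08 and ranged over -0.13 to 0.25 when 1 library was left out. Itgav in SMC2 over Progenitor was -0.32 and ranged over -0.505 to 0.0737 when 1 library was left out. Of calls named less fully in the report, Lamc1 in SMC1 over Intermediate (-0.61, edgeR adjusted p = 0.0274) had adjusted p = 0.0586 to 0.139 without any Intermediate library or SMC1 replicate 1 or 2, Lamb2 in SMC2 over Progenitor 0.0936 to 0.192 without Progenitor replicate 1 or 2 or SMC2 replicate 1, and Itga2b in Intermediate over Progenitor 0.0558 to 0.153 without Intermediate replicate 1 or 2 or Progenitor replicate 1 or 2. Library totals were 13258631 to 22647175 counts; whether depth kept differences among the lowest chains from being called was not tested.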
